A study of Mus musculus with 24 samples.

Results

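Primary keratinocytes of Ppar-beta null mice, mock infected and given the vehicle DMSO, were compared with mock infected, DMSO-treated keratinocytes of wild-type mice across 19937 genes. The members are the 3 arrays whose titles place them in the null DMSO group and the 3 of the wild-type DMSO group, chosen by those titles alone, which makes 6 of the series' 24 arrays. All cells were of strain C57/BL6 and were primary mouse keratinocytes, the barrier-forming cells of the epidermis, taken into culture 2 days before infection. Besides this pair, the genotype was compared in 3 other pairs of 3 null against 3 wild-type arrays. These were mock infected cells with 1 uM GW0742 for 24 hours, cells infected 48 hours with a retrovirus encoding activated Hras and given DMSO, and Hras-infected cells with GW0742. The labels describe a null allele of Ppar-beta with no promoter, Cre or deleted exon, and they state neither the age of the mice nor the number of animals behind a culture. Nothing says that the arrays of a group came from separate cultures or animals, so a p-value here measures array-to-array spread only, and that spread may be technical.

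PPAR-beta, the product of Ppard and also called PPAR-delta, is a nuclear receptor that binds DNA as a partner of RXR and is activated by fatty acids and by the synthetic agonist GW0742. Without an activating ligand it can sit on its target genes with corepressors, and with one it recruits coactivators. In skin it is known for roles in keratinocyte differentiation, lipid metabolism, wound repair and the restraint of proliferation.

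Values are RMA log2 expression from Affymetrix Mouse Gene ST arrays, so a difference of 1 is a 2-fold change. A log2 difference is null minus wild-type ± standard error from limma, fitted to the 24 arrays together (n = 3 in each group), and a gene passed when its Benjamini-Hochberg adjusted p-value over all genes tested was under 0.05. Array medians lay between 7.46 and 7.53. The basal keratinocyte genes Krt5, Krt14 and Trp63 were at high and similar levels in all 6 arrays, with Krt14 between 14.11 and 14.15, and their differences were 0.03, 0.00 and -0.07, none passing. Of all 17 measured basal keratinocyte genes, 3 were higher and 2 lower in null cells. Genes of other cells did differ. Of 17 measured fibroblast markers 15 were lower in null cells, with a median of -0.67 and a summed linear intensity of 14341 to 14647 in null arrays, against 22257 to 24166 in wild-type arrays. Of 13 melanocyte markers 7 were lower (median -0.30), with sums of 14180 to 14650 in null arrays against 17275 to 18274 in wild-type arrays. In total RNA of a culture, fewer cells of a type and less RNA per cell cannot be told apart. The sex-linked genes differed too: Eif2s3y, Kdm5d and Uty on the Y chromosome by 0.65 ± 0.09, 0.31 ± 0.08 and 0.33 ± 0.10, and the X-inactivation RNA Xist by -0.31 ± 0.06, the reverse of the Hras pair (-0.43, -0.50, -0.46 and 0.13, the last not passing). The call of Uty was lost in 8 alternative settings and that of Kdm5d without null replicate 1 or wild-type replicate 3. The part of these cell and sex differences in the results was not tested, and the sex make-up of the cultures cannot be told apart from genotype within the pair.

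Ppard itself measured 10.61, 10.60 and 10.64 in the null arrays, against 11.12, 11.16 and 11.27 in the wild-type arrays. Every null array was below every wild-type array, and the difference was -0.57 ± 0.06 (adjusted p = 1.53e-06), a 1.48-fold lower signal. Which part of the gene is deleted is not stated in the labels, and a probe set outside that part would check nothing, so this level does not by itself test the genotype labels. Among 53 measured genes within 50 annotated genes of Ppard on either side, 2 passed, Ppard itself and Uqcc2. Uqcc2, an assembly factor of respiratory complex III, was at -0.28 ± 0.08 (adjusted p = 0.0211). The 2 make up 3.77% of the 53, where 10.4% of all genes passed. This count depended on the setting. It was 4 with the replicate number as a block and without null replicate 1, and 0 with a 1.5-fold minimum. With the 40% dimmest genes left out it was 8, where 2254 of all genes then tested passed. Without the null Hras GW0742 group 10 of the 53 passed, beside 2515 of all 19937 genes, so the share then lay above that of all genes. Uqcc2 itself missed the threshold without wild-type replicate 1 or null replicate 3 and with the 6 arrays fitted alone. Among the receptors and coregulators, 16 measured, 1 rose and 1 fell. Pparg, the PPAR of fat cells, measured 7.52, 7.44 and 7.24 in the null arrays, against 7.01, 7.15 and 7.12 in the wild-type arrays, a rise of 0.31 ± 0.07 (adjusted p = 0.00679) that was lost without wild-type replicate 1. Ppara, the PPAR of the liver, was at 0.00 ± 0.09 and the partner receptor Rxra at 0.05 ± 0.05, neither passing.

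The genotype difference reached 2076 of the 19937 genes, which is 10.4%. Of these 974 were higher in null cells (4.89% of all genes) and 1102 lower (5.53%). The median over all genes was 0.03. Most differences were small: the median size among passing genes was 0.34, 334 genes reached 1.5-fold (124 higher, 210 lower) and 78 reached 2-fold (27 higher, 51 lower). Null and wild-type arrays did not overlap for 6143 genes, 30.8% of all, and for 2055 of the 2076 that passed. The count of higher genes was 636 without wild-type replicate 1.

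The largest rise was that of Spon2, a secreted matrix protein of the spondin family. It measured 11.11, 11.01 and 11.08 in the null arrays, against 8.86, 8.87 and 8.97 in the wild-type arrays, a difference of 2.17 ± 0.07 (adjusted p = 3.59e-14) or 4.5-fold. Angptl4, a secreted inhibitor of lipoprotein lipase and a classic PPAR target, measured 9.41, 9.23 and 9.48 in the null arrays, against 7.50, 7.52 and 7.44 in the wild-type arrays, 3.7-fold higher at 1.89 ± 0.11 (adjusted p = 1.38e-10). In both genes the arrays of a genotype lay close together and far from the other genotype. The cytoskeletal adaptor Sorbs2 (1.70 ± 0.12), the membrane protein gene Tmem45a2 (1.48 ± 0.10), the lipid flippase Atp10d (1.45 ± 0.06), the dihydrodiol dehydrogenase Dhdh (1.45 ± 0.12) and the sulfatase Arsk (1.42 ± 0.12) followed. The collagenase Mmp13 rose by 1.33 ± 0.22, the hydrogen peroxide-producing oxidase Nox4 by 1.30 ± 0.14, the microtubule regulator Stmn2 by 1.28 ± 0.08, the neuropeptide Y receptor Npy1r by 1.26 ± 0.12 and the growth factor Fgf5, which ends hair growth, by 1.25 ± 0.12. The list of the 15 largest rises ends with the interferon-inducible Samd9l (1.21 ± 0.17), Nrep (1.16 ± 0.16) and the hair keratin Krt84 (1.16 ± 0.15). Tmem45a2 and Samd9l were dim, with means below the array medians in both genotypes. These means were 6.25 and 6.87 in null cells and 4.78 and 5.66 in wild-type cells.

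The largest fall was that of Ublcp1, a phosphatase of the proteasome. It measured 6.56, 6.74 and 6.96 in the null arrays, against 10.14, 10.11 and 10.07 in the wild-type arrays, 10.2-fold lower at -3.35 ± 0.19 (adjusted p = 1.14e-10). Aspn, a small proteoglycan of connective tissue, measured 6.22, 6.40 and 6.61 in the null arrays, against 8.71, 8.85 and 8.41 in the wild-type arrays and fell by 4.75-fold (-2.25 ± 0.20 (adjusted p = 9.07e-08)). Rptn, an envelope protein of the granular layer, measured 8.31, 7.75 and 7.51 in the null arrays, against 9.72, 9.66 and 9.66 in the wild-type arrays, with a difference of -1.82 ± 0.21 (adjusted p = 3.73e-06). The null arrays of Rptn were spread more widely than the wild-type ones, and genes with overlapping arrays were left out of this list by its rule. The kallikrein protease Klk9 (-1.80 ± 0.13), the glutamine transporter Slc1a5 (-1.78 ± 0.09), the adhesion molecule Mcam (-1.78 ± 0.07), the fucosyltransferase Fut2 (-1.73 ± 0.10) and the apolipoprotein Apoc1 (-1.68 ± 0.09) fell by similar amounts. Next came the chemokine Ccl19 (-1.53 ± 0.21), the late cornified envelope genes Lce3e (-1.48 ± 0.25) and Lce1b (-1.42 ± 0.16), Kctd4 (-1.37 ± 0.19), the chitinase-like Chil1 (-1.32 ± 0.13), the transcription factor Ebf1 (-1.31 ± 0.10) and Lrrc17 (-1.30 ± 0.09). The fibroblast markers above were lower in the same arrays, and their part in the falls of Aspn, Lrrc17, Ebf1 and the other genes here was not tested.

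**Figure D1:**
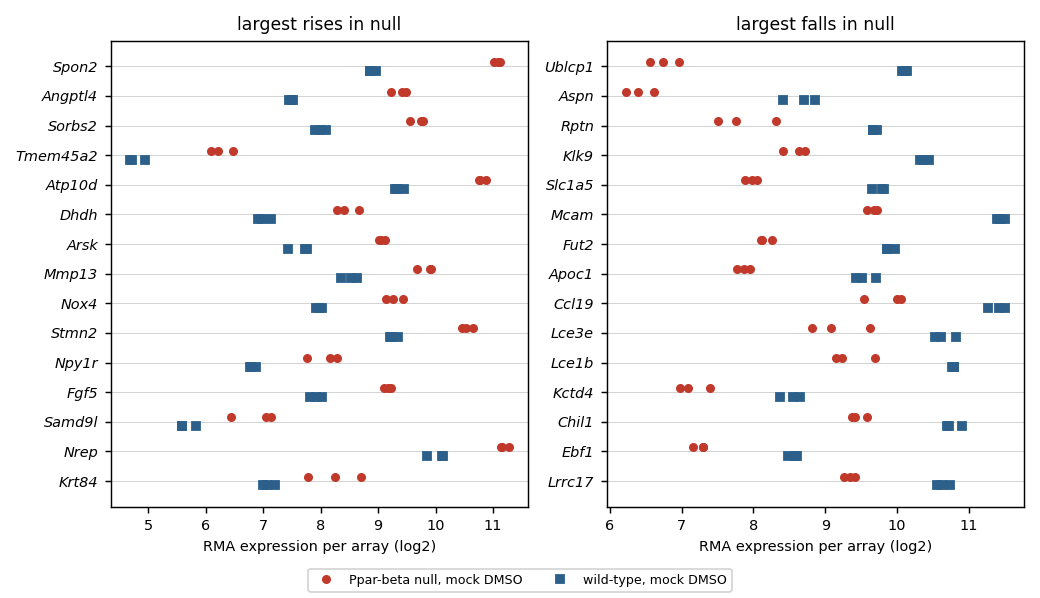
RMA log2 expression (horizontal axis) of the 15 genes with the largest rises (left) and the 15 with the largest falls (right) in each mock DMSO array, with red circles for the 3 null arrays and blue squares for the 3 wild-type arrays. Genes with overlapping groups were left out by the choice of genes. Ublcp1 stands apart with null arrays between 6.56 and 6.96 and wild-type arrays between 10.07 and 10.14.

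Most sterol synthesis genes and a minority of the genes of fatty acid use were higher in null cells without ligand. Of 39 measured PPAR target genes 9 rose and 4 fell (median 0.07, against 0.03 over all genes). Of 23 mitochondrial fatty acid oxidation genes 8 rose and 0 fell (median 0.13), where 4.89% of all genes rose. Cpt1a, which makes acylcarnitines for entry into mitochondria, measured 11.76, 11.83 and 11.75 in the null arrays, against 11.13, 11.24 and 11.17 in the wild-type arrays, a rise of 0.60 ± 0.07 (adjusted p = 2.46e-06). Slc25a20, the carrier that brings acylcarnitines through the inner membrane, measured 9.77, 9.84 and 9.81 in the null arrays, against 9.22, 9.36 and 9.39 in the wild-type arrays and rose by 0.48 ± 0.06 (adjusted p = 1.11e-05). The groups of both genes were well apart. The long-chain dehydrogenase Acadl rose by 0.55 ± 0.06 and the brain-type transferase Cpt1c by 0.71 ± 0.07. Pdk4, a kinase that restrains pyruvate dehydrogenase, and Plin2, a lipid droplet coat protein, are also textbook PPAR targets, but their differences were 0.07 ± 0.08 and 0.01 ± 0.05, not passing. Pdk4 was dim, with means of 6.87 in null and 6.80 in wild-type cells, below the array medians, while Plin2 was bright at 11.95 in both. Among genes of fatty acid handling, 19 measured, 3 rose and 2 fell. The acyl-CoA synthetase Acsbg1 rose by 0.67 ± 0.06, while lipoprotein lipase itself, Lpl, fell by 0.42 on the log2 scale (adjusted p = 0.0108), a call lost without wild-type replicate 1 or null replicate 2. Of 24 genes of fatty acid synthesis and desaturation 6 rose and 1 fell, and the desaturase Fads2 rose most at 0.79 ± 0.08 (adjusted p = 5.24e-07). Of 19 peroxisomal oxidation genes 2 rose and 2 fell.

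Of 19 cholesterol and sterol synthesis genes 11 rose and 0 fell, with a median of 0.22, and 18 of the 19 differences were positive. Nsdhl, which removes methyl groups from sterol precursors, measured 11.71, 11.59 and 11.79 in the null arrays, against 11.25, 11.17 and 11.36 in the wild-type arrays, a rise of 0.44 ± 0.06 (adjusted p = 2.76e-05). Hmgcs1, which makes HMG-CoA, rose by 0.31 ± 0.05 and Insig1, the sterol-sensing retention protein, by 0.29 ± 0.06. These are modest shifts that recurred across the pathway. The cholesterol exporter Abca1, which lies outside that list, measured 9.58, 9.74 and 9.79 in the null arrays, against 9.23, 9.25 and 9.32 in the wild-type arrays, a rise of 0.44 ± 0.07 (adjusted p = 0.000137).

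**Figure D2:**
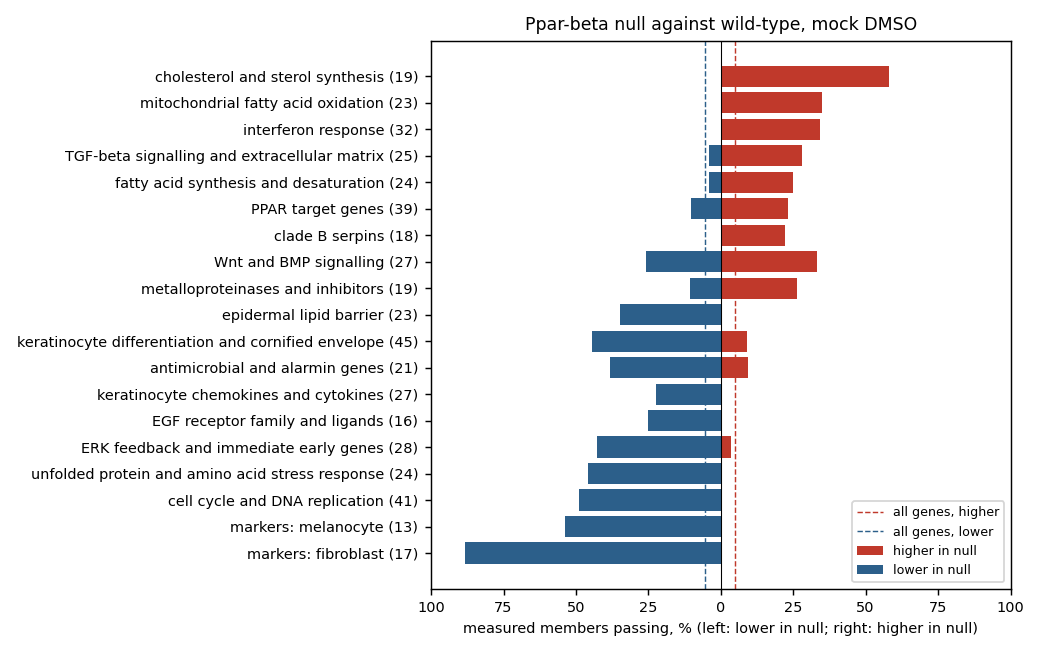
Share of the measured members (number in brackets) that passed in null against wild-type mock DMSO cells, for 19 of the 39 gene lists. These lists were picked for display, and lists near the shares of all genes are among those left out. Bars to the right show members higher in null cells and bars to the left members lower. Dashed lines mark the shares of all genes, 4.89% higher and 5.53% lower. Of the lists shown, the cholesterol list (11 of 19 higher) and the fibroblast markers (15 of 17 lower) lie farthest from them.

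Many genes of terminal differentiation were lower in null cells. Of 45 measured genes of differentiation and the cornified envelope, the protein shell of dead surface cells, 20 fell, 4 rose and 21 did not pass (median -0.31). Of all genes 5.53% fell. The late cornified envelope genes, which lie together in the epidermal differentiation complex and were taken as a family after their values were seen, fell in 17 of 19 cases (median -1.08, lowest -1.48). Lce1b measured 9.69, 9.14 and 9.24 in the null arrays, against 10.79, 10.78 and 10.76 in the wild-type arrays, a difference of -1.42 ± 0.16 (adjusted p = 3.87e-06). Its wild-type arrays lay close together, and null replicate 1 was the nearest to them. These genes are close copies of each other and their probe sets may share signal, so their number does not count independent genes. By contrast 1 of 13 Sprr genes, another family of the same complex, fell and 0 rose (median -0.03). Flg2, a filaggrin relative, measured 7.49, 7.35 and 7.24 in the null arrays, against 8.54, 8.33 and 8.66 in the wild-type arrays and fell by 2.22-fold (-1.15 ± 0.12 (adjusted p = 1.65e-06)). Lor, the main envelope protein, was at -0.48 ± 0.15 (adjusted p = 0.0466), and the call was lost with any single wild-type array left out, without null replicate 2 or 3 and with trend and robust moderation.

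The promoter windows of Rptn and Flg2 are shown because both genes fell more than 2-fold and hold a match to the AP-1 site TGANTCA, the motif of Fos and Jun proteins, which are known regulators of differentiation genes. The windows run from 250 bases before to 50 after the transcript start (RefSeq, GRCm38.p6) and lie at chr3:93393449-93393748, on the plus strand, and at chr3:93197023-93197322, on the plus strand. Capitals mark the match on either strand, and the motif reads the same on both strands.
Rptn: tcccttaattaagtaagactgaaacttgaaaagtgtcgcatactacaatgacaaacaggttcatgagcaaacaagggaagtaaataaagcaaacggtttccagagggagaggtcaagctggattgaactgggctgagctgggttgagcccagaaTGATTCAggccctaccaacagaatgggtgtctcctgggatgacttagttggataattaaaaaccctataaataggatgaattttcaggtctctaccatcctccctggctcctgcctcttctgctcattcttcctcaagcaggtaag
Flg2: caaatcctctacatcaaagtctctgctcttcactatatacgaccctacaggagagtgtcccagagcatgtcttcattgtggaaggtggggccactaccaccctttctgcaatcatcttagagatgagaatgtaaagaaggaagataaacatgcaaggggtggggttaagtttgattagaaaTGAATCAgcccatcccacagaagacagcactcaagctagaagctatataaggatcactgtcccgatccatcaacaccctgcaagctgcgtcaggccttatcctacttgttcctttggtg
The motif was present for 13 of 38 differentiation genes with a window, 34.2%, against 8.08% of all 15613 measured genes with a window. The share was 29.2% (7 of 24) among the interferon response genes, of which 11 of 32 rose and 0 fell. Among the differentiation genes the motif was present for 7 of the 18 that fell and 2 of the 4 that rose. A match is a run of letters and not a measured binding site.

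Barrier lipid genes fell alongside. Of 23 genes that build the lipid barrier 8 fell and 0 rose (median -0.14). Degs2, which hydroxylates ceramides, measured 9.05, 8.57 and 8.80 in the null arrays, against 9.72, 9.63 and 9.87 in the wild-type arrays, a fall of 0.94 on the log2 scale (adjusted p = 0.00243). The epidermal lipoxygenase Aloxe3 was at -0.75 ± 0.17 and the lipase Lipn at -0.83 ± 0.16. Lipn was dim, with means of 6.47 in null and 7.30 in wild-type cells. Among stress and wound keratins, 12 measured, 1 passed: Krt6b, induced at wound edges, at -0.74 ± 0.10 (adjusted p = 2.96e-05). Of 17 basal keratinocyte genes 3 rose and 2 fell (median 0.03). Of 21 antimicrobial and alarmin genes 8 fell and 2 rose. The beta-defensins Defb14 and Defb4 fell to a mean of 7.46 and 7.56 in null cells, against 8.62 and 8.70 in wild-type cells (-1.17 ± 0.20 and -1.14 ± 0.23), while the lysozyme gene Lyz2 was at 1.01 ± 0.14. Lyz2 is also among the 20 measured leukocyte markers, of which 2, Lyz2 included, rose and 0 fell. Their summed intensities were 3926 to 4131 in null arrays against 3534 to 3706 in wild-type arrays. These sums contain Lyz2 itself, so they are not separate from its rise. The part of leukocytes in that rise was not tested. Among clade B serpins, protease inhibitors of the epithelium, 4 of 18 rose and 0 fell. Serpinb9b led at 0.98 ± 0.09, followed by Serpinb3c at 0.93 ± 0.12 among others. Serpinb3c was dim, with means of 7.03 in null and 6.10 in wild-type cells. The retinoid list (21 measured) had 5 falls and 0 rises, including the retinol dehydrogenase Dhrs9 (-0.97 ± 0.19) and the retinoic acid-binding protein Crabp1 (-0.85 ± 0.09).

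Proliferation genes were lower as well. Of 41 genes of the cell cycle and DNA replication 20 fell and 0 rose (median -0.20), and 38 of the 41 differences were negative. Mcm6, a subunit of the replicative helicase, measured 9.21, 9.11 and 9.07 in the null arrays, against 9.89, 9.79 and 9.81 in the wild-type arrays, a fall of 1.62-fold (-0.70 ± 0.07 (adjusted p = 3.75e-07)). Of 9 measured Mcm genes, a family also taken after its values were seen, 8 fell (median -0.28). Ccnd1, the cyclin that starts the cycle, measured 11.19, 11.02 and 11.31 in the null arrays, against 11.95, 11.67 and 11.97 in the wild-type arrays with a difference of -0.69 ± 0.08 (adjusted p = 5.70e-06). No array of either gene crossed to the other group, as for 2055 of the 2076 genes that passed. Among 16 CDK inhibitors and senescence regulators 3 rose and 2 fell. Cdkn2b, the inhibitor p15, measured 10.71, 10.81 and 10.79 in the null arrays, against 10.05, 10.14 and 10.19 in the wild-type arrays and rose by 0.64 ± 0.11 (adjusted p = 0.000287), and Cdkn2a was at 0.36 ± 0.10 (adjusted p = 0.0255), a call that was lost without wild-type replicate 1 and without each null array in turn.

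Targets of ERK signalling, the kinase cascade below growth factor receptors, fell in 12 of 28 cases, and 1 rose (median -0.15). The ETS factor Etv5 measured 8.20, 7.98 and 7.82 in the null arrays, against 8.90, 8.68 and 8.83 in the wild-type arrays, a difference of -0.80 ± 0.10 (adjusted p = 1.29e-05). The immediate early factor Egr2 was at -0.70 ± 0.13 and the feedback inhibitor Spry4 at -0.63 ± 0.08. Of 16 EGF receptor family members and ligands 4 fell and 0 rose, led by the ligand Epgn at -0.77 ± 0.13 (adjusted p = 0.000321). Amino acid supply and stress genes moved the same way: 11 of 24 in the unfolded protein and amino acid stress list fell and 0 rose (median -0.13). The glutathione-degrading Chac1 was at -0.67 ± 0.09 and the pseudokinase Trib3 at -0.62 ± 0.08. Slc1a5, outside that list, measured 7.88, 7.98 and 8.05 in the null arrays, against 9.81, 9.65 and 9.79 in the wild-type arrays. Of 27 chemokines and cytokines 6 fell and 0 rose, led by the monocyte attractant Ccl2 at -0.92 ± 0.07 (adjusted p = 2.63e-08).

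Interferon response genes were higher in null cells. Of 32 measured 11 rose and 0 fell (median 0.33), and 30 of 32 differences were positive. Usp18, which limits interferon receptor signalling, measured 10.97, 10.71 and 10.37 in the null arrays, against 9.73, 9.60 and 9.40 in the wild-type arrays, a rise of 2.15-fold (1.11 ± 0.24 (adjusted p = 0.00351)). The 3 arrays of each genotype were spread widely, and replicate 1 was the highest in both. The antiviral gene Rtp4 rose by 0.87 ± 0.19 and the radical-forming antiviral enzyme Rsad2 by 0.50 ± 0.09 (adjusted p = 0.000798). Stat2, which carries the interferon signal to the nucleus, rose by 0.39 ± 0.08 (adjusted p = 0.00292). Rsad2 was dim, with means of 6.70 in null and 6.20 in wild-type cells. Of 15 MHC genes 1 rose and 0 fell.

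The windows of Rsad2 and Stat2 are shown because both genes rose and hold the core of the interferon-stimulated response element, GAAANNGAAA, to which the STAT2 complex is known to bind. They lie at chr12:26456403-26456702, on the minus strand, and at chr10:128270248-128270547, on the plus strand (RefSeq, GRCm38.p6). Capitals mark the match, here on the opposite strand of the printed one in both.
Rsad2: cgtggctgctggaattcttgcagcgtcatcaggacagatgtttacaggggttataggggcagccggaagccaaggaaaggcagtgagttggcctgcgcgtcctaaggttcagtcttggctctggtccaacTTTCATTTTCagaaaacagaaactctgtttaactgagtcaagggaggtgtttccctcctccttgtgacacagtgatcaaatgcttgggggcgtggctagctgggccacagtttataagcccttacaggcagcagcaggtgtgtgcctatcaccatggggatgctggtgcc
Stat2: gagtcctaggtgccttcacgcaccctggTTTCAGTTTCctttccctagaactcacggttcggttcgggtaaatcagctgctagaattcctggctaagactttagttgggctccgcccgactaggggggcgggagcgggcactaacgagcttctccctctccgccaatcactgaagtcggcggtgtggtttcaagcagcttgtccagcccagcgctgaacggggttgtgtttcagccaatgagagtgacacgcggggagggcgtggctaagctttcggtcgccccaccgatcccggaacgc
The motif was found for 13 of the 24 interferon genes with a window, 54.2%, and for 6 of the 9 with a window that rose, against 3.89% of all measured genes with a window. This list is defined by interferon response, so the share describes the list.

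Among secreted signals, 7 of 25 genes of TGF-beta signalling and extracellular matrix rose and 1 fell. Id2, an inhibitor of differentiation factors, measured 12.07, 12.16 and 12.07 in the null arrays, against 11.58, 11.51 and 11.58 in the wild-type arrays, a rise of 0.55 ± 0.05 (adjusted p = 4.05e-07). Of 27 Wnt and BMP genes 9 rose and 7 fell: the Wnt ligands Wnt7a and Wnt10b were at 0.66 ± 0.07 and 0.58 ± 0.10, and the BMP antagonist Grem1 at -0.70 ± 0.13. Of 19 metalloproteinases and inhibitors 5 rose and 2 fell, with the stromelysin Mmp10 at 0.94 ± 0.10 beside Mmp13. Of 27 glycolysis and hypoxia genes 6 rose and 5 fell, and the mitophagy receptor Bnip3 rose by 0.68 ± 0.12. In the list of NRF2 and glutathione genes (31 measured) 2 rose and 4 fell. Nnt, the mitochondrial transhydrogenase that some C57BL/6 substrains lack in full-length form, measured 9.34, 9.45 and 9.20 in the null arrays, against 10.05, 10.04 and 10.06 in the wild-type arrays, a difference of -0.72 ± 0.09 (adjusted p = 2.03e-05), and was also lower in the Hras pair at -1.24 ± 0.09. Whether substrain differed between the genotypes is not given in the labels. Respiratory chain subunits (27 measured, 3 fell), claudins, tight junctions and connexins (18, with 2 higher and 1 lower), desmosomal genes (15, with 3 higher) and prostaglandin genes (21, with 1 higher and 1 lower) made up further lists. Of the remaining markers, 2 of 10 endothelial ones fell, 1 of 11 muscle and pericyte ones rose and 1 fell, 4 of 18 hair follicle and sebaceous ones rose and 2 fell, and 1 of 8 Merkel and neural ones rose.

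The same genotype contrast in separate arrays with GW0742 gave 4386 passing genes, 22% of all (11.1% higher, 10.9% lower). Of the 2076 genes above, 1616 passed the same way there, 77.8% of the DMSO list and 36.8% of the GW0742 list, and 95.9% had the same sign against 73.1% of all genes. The labels do not say whether DMSO and GW0742 arrays shared cultures. With GW0742, 21 of 45 differentiation genes were lower, 29 of 41 cell cycle genes were lower and 16 of 32 interferon genes were higher. In the opposite direction passed 24 genes. Of these 23 were higher in null DMSO cells and lower in null GW0742 cells, and 1, the kinase Sgk1, was the reverse (-0.19 without and 0.14 with GW0742). Its DMSO call was lost without wild-type replicate 1 and with the 6 arrays fitted alone.

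Angptl4 shows the pattern of the 23. With GW0742 it measured 9.35, 9.35 and 9.51 in null cells, against 11.66, 11.62 and 11.67 in wild-type cells, a difference of -2.25 ± 0.11, against 1.89 ± 0.11 with DMSO. Null cells thus had nearly the same level with and without the ligand, which lay between the wild-type levels with DMSO and with GW0742. Cpt1a measured 11.79, 11.70 and 11.64 in null cells, against 12.45, 12.51 and 12.47 in wild-type cells (-0.76). Acsbg1, Abca1 and Slc25a20 were likewise lower in null cells with GW0742, at -1.18, -1.13 and -0.40, and higher without it. Insig1 measured 10.37, 10.28 and 10.52 in null cells, against 10.98, 10.94 and 10.99 in wild-type cells (-0.58). Of the 19 sterol genes 11 were higher and 0 lower in null cells with DMSO, while 0 were higher and 9 lower with GW0742. For Pdk4 the null and wild-type DMSO arrays overlapped, and with GW0742 it measured 6.98, 7.10 and 6.98 in null cells, against 10.99, 10.93 and 10.90 in wild-type cells. The test of the difference between the pairs passed for 169 genes, 0.848% of all (57 positive, 0.286%, and 112 negative, 0.562%). It passed for 291 with only the arrays of both pairs fitted and for 260 with trend and robust moderation. The 169 included 14 of 39 PPAR targets, 11 of 23 mitochondrial oxidation genes and 13 of 19 sterol genes, all negative. A gene may be in more than 1 list, so these counts need not be separate.

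**Figure D3:**
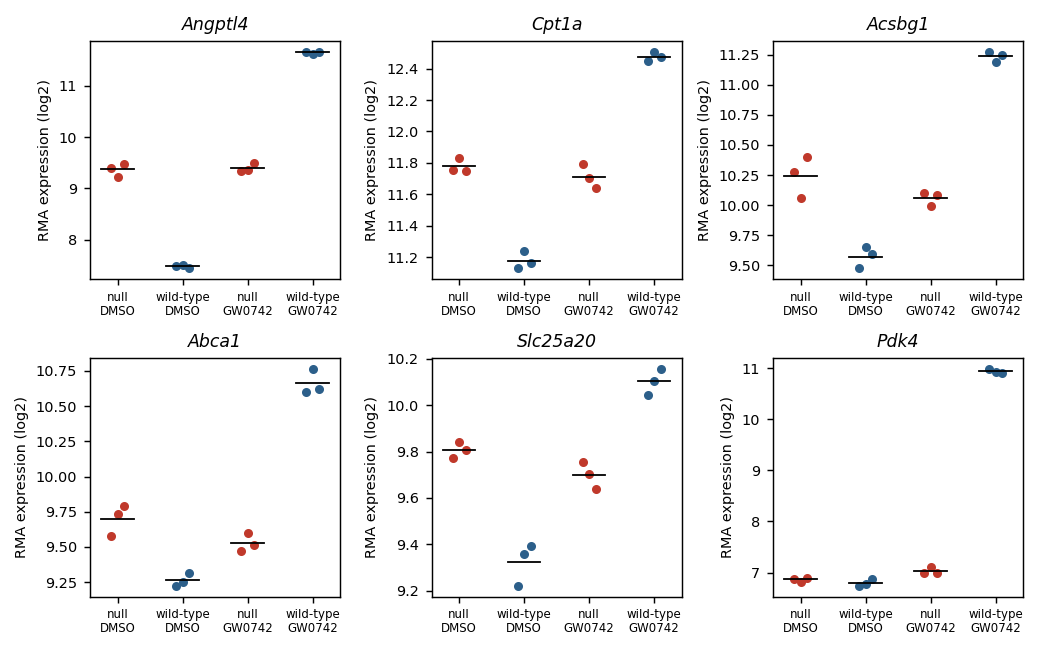
RMA log2 expression of 6 genes in single arrays of the mock infected groups, with red points for null arrays, blue points for wild-type arrays and a black line at each group mean (n = 3). In the first 5 genes the null groups lie above wild-type DMSO and below wild-type GW0742, while null and wild-type DMSO arrays of Pdk4 overlap, and each vertical axis has its own range.

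In Hras-infected cells the direction was not kept across the list, and in both Hras pairs some of the genes passed the same way and others the opposite way. With Hras and DMSO 3871 genes passed, 19.4% of all (10.1% higher, 9.32% lower). With Hras and GW0742 4201 passed, 21.1% (1976 genes higher, 2225 lower), or 1686 with only that pair's arrays fitted. Of the 2076 genes, 411 passed the same way in the Hras DMSO pair (19.8% of the mock list and 10.6% of the Hras list) and 470 passed the opposite way (22.6% of the mock list). The sign was the same for 48% of the 2076, against 51.8% of all genes. In the Hras GW0742 pair 398 of the 2076 passed the same way and 531 the opposite way. There the sign was the same for 44.6%, against 53.6% of all genes. The test of the difference between the Hras and mock DMSO effects passed for 3342 genes, 16.8% of all (8.35% positive, 8.41% negative), among them 1232 of the 2076.

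The late cornified envelope genes, lower in mock null cells, were higher in null cells with Hras. In the Hras DMSO pair 17 of 19 were higher in null cells (median 0.89), and the difference between the pairs passed for 18 of the 19. Lce1b measured 9.44, 10.23 and 9.98 in null cells, against 8.67, 8.79 and 9.20 in wild-type cells after Hras, a difference of 1.00 ± 0.16 (adjusted p = 0.000133). Across the differentiation list 26 of 45 were higher and 1 lower after Hras, and the difference was positive and passing for 30. Lipid barrier genes were higher in 14 of 23 cases, and Aloxe3 measured 10.10, 10.84 and 10.69 in null cells, against 8.90, 9.17 and 9.74 in wild-type cells. Of the 24 genes of the amino acid stress list 20 were higher and 0 lower with Hras and DMSO, and 11 higher and 0 lower with Hras and GW0742. The ERK targets were mixed: 13 of 28 were higher and 4 lower with Hras and DMSO. With Hras and GW0742 4 of the 28 were higher and 7 lower, where 1976 of all 19937 genes were higher and 2225 lower. Of those named above, with Hras and DMSO Spry4 stayed lower and passing at -0.24, and Etv5 (-0.03) and Egr2 (0.25) did not pass. Slc1a5 measured 9.49, 9.38 and 9.31 in null cells, against 8.99, 8.97 and 9.02 in wild-type cells. By passing calls, fibroblast markers also differed in this way: 9 of 17 were higher and 1 lower in null cells after Hras. Twist2 was at -1.08 in mock and 0.39 in Hras cells, Pdgfrb at -1.08 and 0.28, and Col6a3 at -1.06 and 0.29. The summed intensities of the 17 overlapped with Hras and DMSO, at 8603 to 10948 in null arrays and 8303 to 9339 in wild-type arrays. Both lay below the sums of the mock DMSO arrays. The part of the fibroblast markers in these reversals was not tested.

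**Figure D4:**
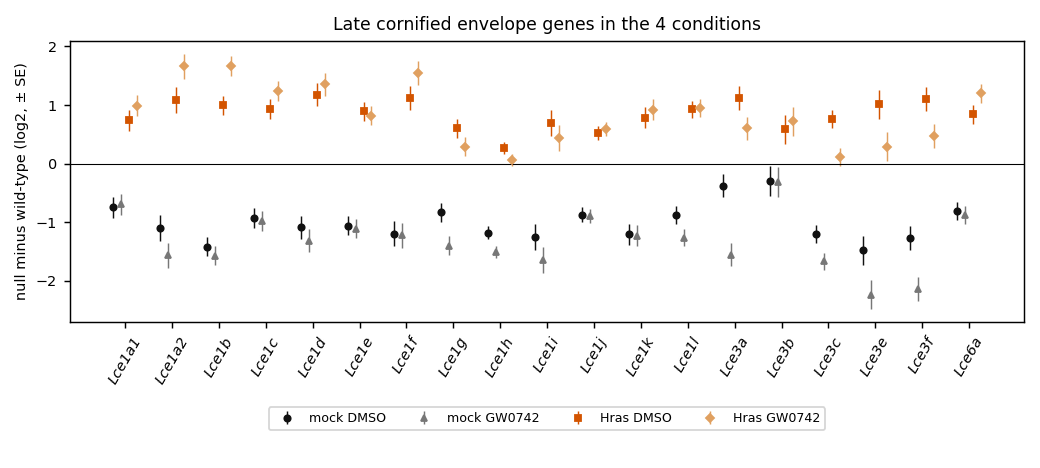
Log2 difference, null minus wild-type ± SE (n = 3 arrays per group), of the 19 measured late cornified envelope genes, each with a point for mock DMSO, mock GW0742, Hras DMSO and Hras GW0742. All points of the mock conditions lie below 0 and all points of the Hras conditions above 0, and 17 of 19 passed in mock DMSO and 17 of 19 in Hras DMSO.

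The 5 genes with the largest difference between the Hras and mock effects were Gabrp, Sorbs2, Il3, Defb4 and Kctd4. Gabrp, a GABA receptor subunit of epithelia, measured 11.69, 11.78 and 11.62 in the null arrays, against 10.60, 10.80 and 10.60 in the wild-type arrays in mock cells and 9.76, 9.37 and 9.35 in null cells, against 11.81, 12.01 and 11.65 in wild-type cells with Hras, a difference between the effects of -3.36 ± 0.21 (adjusted p = 1.52e-09). Il3, a cytokine gene, did not pass in mock cells (0.04 ± 0.23, overlapping arrays), and with Hras measured 6.02, 5.54 and 5.31 in null cells, against 9.09, 8.77 and 8.04 in wild-type cells. Sorbs2 measured 7.69, 7.59 and 7.40 in null cells, against 9.03, 9.20 and 8.97 in wild-type cells with Hras, so it was higher in null cells in one pair and lower in the other. Defb4 and Kctd4 ran the other way, lower in mock null cells and higher in Hras null cells (1.74 and 1.36). Interferon genes showed 0 higher and 4 lower of 32 after Hras, and the difference was negative and passing for 12.

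Some genotype differences held in every condition. In all 4 pairs 548 genes passed, of which 304 did not keep one direction and 244 (1.22% of all genes) did, 107 higher and 137 lower in null cells, and 9 of them by at least 2-fold in each. Spon2 was at 2.17, 2.22, 2.20 and 2.65 in mock DMSO, mock GW0742, Hras DMSO and Hras GW0742. Ublcp1 was at -3.35, -2.83, -2.81 and -3.07 in the same order. The other named ones were Atp10d, Dhdh and the lipid transporter Abca5 (1.07 in mock DMSO), all higher, and Klk9, Mcam and the ubiquitin ligase Mid1 (-1.03 in mock DMSO), all lower, and the ninth is a transcript known by a clone name. The size still varied for some: Mcam was at -1.78 in mock DMSO and -3.23 in Hras DMSO, and that difference passed (-1.45 ± 0.10 (adjusted p = 5.81e-09)).

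**Figure D5:**
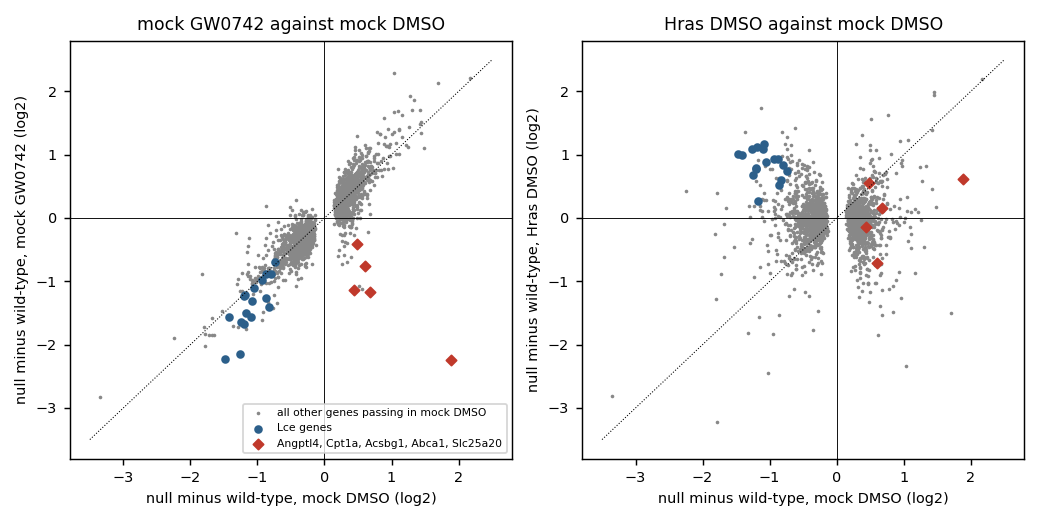
Each point is 1 of the 2076 genes that passed in mock DMSO cells, with its null minus wild-type log2 difference there on the horizontal axis. The vertical axis gives the difference in mock GW0742 (left) or Hras DMSO (right), and a dotted line marks where both are equal. Blue circles are the Lce genes among them and red diamonds Angptl4, Cpt1a, Acsbg1, Abca1 and Slc25a20. Of the passing genes 95.9% keep their sign on the left, against 48% on the right.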

How the data were processed

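Total RNA, extracted with TRIzol and cleaned on RNeasy columns per the labels' protocols, was hybridised to Affymetrix Mouse Gene ST arrays, 1 per sample. What the authors deposited is a table of log2 values for 34760 probe sets on 24 arrays, processed by RMA per the submitters' processing notes. RMA corrects background, makes the arrays' distributions alike and summarises probes. Its software version is not stated there. Values ran from 2.27 to 14.8 with 0 missing, and no further normalization was applied. Because RMA aligns the arrays, a shift common to most genes cannot appear.

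Of 34760 probe sets, 21640 had 1 gene symbol in the platform annotation, 1321 several and 11799 none listed. Only the first were used, and 954 genes with several were represented by the brightest over all arrays, leaving 19937 genes, of which 19854 matched RefSeq (GRCm38.p6) by Entrez identifier for names, gene order and promoters. No source used here names the array's genome build.

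With limma 3.58.1 in R 4.3.3, 1 mean per group was fitted over the 8 groups (16 residual and 4.43 prior degrees of freedom), without a block. P-values are two-sided, adjusted by Benjamini-Hochberg over all genes. The procedure was tested on simulated data. Same-numbered null and wild-type arrays deviated together (correlations 0.144, 0.118 and 0.132), so the numbers, taken from the titles, may pair the arrays. The main fit did not use this pairing, so its standard errors and p-values ignore it, and the block was an alternative. Others were median centring, leaving out the 40% dimmest genes, moderation with trend and robust settings, keeping every probe set, using only the arrays compared, no null Hras GW0742 group, a 1.5-fold minimum and leaving out each array.

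The comparison, the 39 gene lists (826 of 891 entries measured, 3 by an older name) and the tests were chosen with earlier results of these data known, so no list is independent support. Named were Ppard and passing genes within 50 genes of it, the 15 largest rises and falls without overlapping arrays (predicted transcripts skipped), up to 4 passing members per list by size, genes called alike in all 4 conditions, the 5 largest differences between conditions, and a few set PPAR genes. Abca1, Insig1, Sgk1, Flg2, Lor, Rsad2, Stat2, Krt5, Krt14 and Trp63 lie outside that rule, and all but the keratins and Trp63 were picked with their values in view. Figures were drawn with matplotlib 3.10.9.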

Additional observations from a re-analysis of the deposited data

Results flagged for a closer look

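A difference between groups drew attention to each result here: the genotype effect, null minus wild-type, differed between conditions by limma's test of the difference, adjusted over all genes. Between the Hras DMSO and the mock DMSO pair 3342 genes did so, and between the mock GW0742 and the mock DMSO pair 169. The values below are log2 differences of the effects, so a positive one means that the null cells stood higher, relative to wild-type cells, in the Hras pair (or with GW0742) than in the mock DMSO pair.

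With Hras, the difference was positive for 30 and negative for 2 of 45 differentiation genes, and positive for 13 and negative for 0 of 23 lipid barrier genes. Named genes of differentiation, the barrier, defence and retinoids with a positive difference were Rptn 1.56, Flg2 1.34, Lor 1.31, Lce1b 2.42, Lce3e 2.49, Degs2 1.89, Lipn 1.27, Aloxe3 2.02, Krt6b 1.33, Defb14 2.09, Defb4 2.87, Dhrs9 1.75 and Crabp1 1.49. Those of growth, signalling and amino acid supply were Mcm6 0.41, Ccnd1 0.49, Etv5 0.77, Egr2 0.95, Spry4 0.39, Epgn 1.93, Chac1 0.92, Trib3 1.23, Slc1a5 2.18, Ccl2 0.91 and Ccl19 1.07. The named fibroblast and melanocyte markers were Twist2 1.48, Pdgfrb 1.36, Col6a3 1.35, Col1a2 0.94 and Mlana 0.38. Other genes with a positive difference were Ppard 0.29, Uqcc2 0.44, Sgk1 0.35, Aspn 2.67, Lrrc17 1.31, Ebf1 1.497, Atp10d 0.49, Dhdh 0.55, Fut2 0.84, Apoc1 1.06, Kctd4 2.73 and Xist 0.44.

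Lipid genes went both ways with Hras. The difference was positive for 1 and negative for 8 of 23 mitochondrial oxidation genes, but positive for 2 and negative for 3 of 19 sterol genes, for 3 and 3 of 19 genes of fatty acid handling and for 4 and 3 of 19 peroxisomal genes. Named lipid genes with a negative difference were Angptl4 -1.27, Cpt1a -1.32, Cpt1c -0.33, Acadl -1.02, Acsbg1 -0.52, Abca1 -0.58, Fads2 -1.09 and Nsdhl -0.32, and those with a positive one Lpl 1.00 and Insig1 0.39. The receptor gene Rxra was at -0.31. Of 32 interferon genes 12 had a negative and 0 a positive difference, among the named ones Usp18 -1.01, Rtp4 -1.03 and Rsad2 -0.74. Other named genes with a negative difference were Samd9l -1.11, Cdkn2b -0.88, Cdkn2a -0.58, Id2 -0.34, Wnt7a -0.66, Wnt10b -0.68, Serpinb3c -1.04 and Lyz2 -1.06. The same held for Sorbs2 -3.21, Tmem45a2 -1.30, Arsk -0.96, Nox4 -1.76, Stmn2 -0.69, Npy1r -1.30, Nrep -2.04, Krt84 -1.03, Mcam -1.45, Mid1 -1.43, Gabrp -3.36, Il3 -3.06 and Nnt -0.52. The Y-linked genes gave Eif2s3y -1.08, Kdm5d -0.81 and Uty -0.79, opposite in sign to Xist. Their part and that of the cell type markers in the other differences was not tested.

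With GW0742 the negative differences were Angptl4 -4.14, Pdk4 -3.99, Plin2 -1.17, Cpt1a -1.37, Slc25a20 -0.89, Acsbg1 -1.85, Abca1 -1.57, Nsdhl -0.38, Hmgcs1 -0.37, Insig1 -0.87 and Ccl2 -0.56. The positive ones were Chil1 1.08, Id2 0.40, Stmn2 0.64, Sgk1 0.33 and Gabrp 1.26.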

How the results depend on the processing

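The count of genes passing in mock DMSO, 2076, lay between 1998 and 2515 with the arrays centred on their medians, the 40% dimmest genes left out, moderation with trend and robust settings, all probe sets kept, the 6 compared arrays alone, the null Hras GW0742 group left out or the replicate number as a block (replicate block: 2075). Without a single array it was 1395 to 1904 (636 to 878 higher, 759 to 1026 lower, the lowest without wild-type replicate 1). The 1.5-fold minimum left 334 genes (124 higher, 210 lower), 568 with GW0742, 580 with Hras and 689 with both. The same minimum left 983 and 78 genes for the differences with Hras and GW0742, and 253, 61 and 54 shared with mock GW0742, Hras DMSO and Hras GW0742. These are smaller by construction. With only the arrays compared, Hras GW0742 gave 1686 genes instead of 4201 and shared 237 instead of 398 with mock DMSO. The difference with GW0742, 169 genes, became 291 with only its own arrays and 260 with trend and robust settings, and the cause was not tested. Leaving out 1 array gave 3447 to 3803 genes in mock GW0742, 2849 to 3815 in Hras DMSO, 3342 to 6225 in Hras GW0742, 2669 to 3549 for the Hras difference and 114 to 162 for the GW0742 difference. Shared calls then numbered 1133 to 1535, 322 to 398 and 313 to 522. Near Ppard, 2 genes became 8 without dim genes, 10 without the null Hras GW0742 group, 4 with the replicate block, 0 with the fold minimum and 2 to 4 without 1 array, and windows of 10, 25 and 100 genes held 1, 1 and 9. The replicate block changed no other call among the 100 genes named. Of the 92 named genes that passed, 84 kept the call in every alternative that tested them except the fold minimum (87 of the 100 were tested with the dimmest genes left out), and 8 lost it at least once (Uqcc2, Pparg, Sgk1, Lpl, Lor, Cdkn2a, Kdm5d and Uty). None of the 100 changed sign in a called value. With 3 arrays per group, small differences in dim genes are limited by array number and by signal near background, which the deposited table does not give.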
